A study of Homo sapiens with 8 samples.

Results

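The genes of the octamer factors and of their coactivator are POU2AF1, which encodes OCAB, POU2F2, which encodes OCT2, and POU2F1, which encodes OCT1. Peaks were taken where they overlapped 1 of 3 windows on build hg19: chr11:111215000-111265000 for POU2AF1, chr19:42585000-42650000 for POU2F2 and chr1:167180000-167400000 for POU2F1. The windows cover 50 kb, 65 kb and 220 kb. They held 72 of the 159806 peaks of the series, and these merged into 29 of 74123 regions. The series maps proteins by ChIP-seq (chromatin immunoprecipitation and sequencing) in cultures of 697, an established human pre-B leukaemia line. It has 1 library for each of 7 antibodies (OCAB, OCT2, MTA2, HDAC2, Mi2, IKAROS and AIOLOS) and 1 input library of genomic DNA without an antibody. No antibody was directed at OCT1. No antibody had a replicate library, so intervals of tag counts cover counting error only and no test between proteins was made. Intervals of shares treat regions or peaks as independent, which they are not. The lists hold no expression values, so the labelled cell type was not checked against marker genes.

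OCT1 and OCT2 recognise the octamer sequence through their POU domains. OCT1 is found in most cell types, whereas OCT2 is largely a protein of B cells and neurons. OCAB, also called BOB1 or OBF-1, does not bind DNA stably alone and docks on an octamer-bound POU domain. MTA2, HDAC2 and Mi2 belong to NuRD, a complex that remodels nucleosomes and removes histone acetylation: MTA2 is a scaffold, HDAC2 a deacetylase and Mi2 the remodelling ATPase. IKAROS and AIOLOS are zinc-finger factors of lymphocytes that can recruit NuRD.

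Promoter sequences (RefSeq, GRCh38.p14, 300 bases around a gene start) show which start sites carry the octamer word ATTTGCAT, searched on both strands (reverse complement ATGCAAAT) with exact matches. They had 1 entry for POU2F2 and 3 for POU2F1, of which 2 are shifted by 1 base, and POU2AF1 is not among them. The word was present in the downstream POU2F1 promoter, from base 72 of the printed strand, and in neither of the others printed here. It was present in 1.76% of 34796 distinct RefSeq promoters. The peaks are on hg19 and the promoters on GRCh38, so similar numbers in the 2 sets of coordinates do not mark the same place, and no peak was assigned to a promoter. Capitals mark the octamer word.
POU2F2, chr19:42132397-42132696, minus strand: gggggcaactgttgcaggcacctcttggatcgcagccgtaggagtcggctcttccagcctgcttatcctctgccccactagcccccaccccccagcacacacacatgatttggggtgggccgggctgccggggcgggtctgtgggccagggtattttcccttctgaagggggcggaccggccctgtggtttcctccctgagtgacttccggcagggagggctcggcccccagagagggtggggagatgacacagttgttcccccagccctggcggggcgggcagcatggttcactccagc
POU2F1 upstream start, chr1:167220636-167220935, plus strand: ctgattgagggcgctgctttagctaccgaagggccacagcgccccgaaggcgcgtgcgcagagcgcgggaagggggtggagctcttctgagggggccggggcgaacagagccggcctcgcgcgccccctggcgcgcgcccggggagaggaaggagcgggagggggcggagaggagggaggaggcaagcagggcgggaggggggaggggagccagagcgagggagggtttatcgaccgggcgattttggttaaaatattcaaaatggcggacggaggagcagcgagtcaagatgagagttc
POU2F1 downstream start, chr1:167328820-167329119, plus strand: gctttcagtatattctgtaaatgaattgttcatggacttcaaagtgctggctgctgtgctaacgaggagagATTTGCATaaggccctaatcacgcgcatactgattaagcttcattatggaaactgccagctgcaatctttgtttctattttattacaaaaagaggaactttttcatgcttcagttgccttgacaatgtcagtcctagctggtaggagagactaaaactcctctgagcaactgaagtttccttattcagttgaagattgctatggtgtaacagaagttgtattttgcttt

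The promoters differed in base composition as well: G and C made up 39.0% of the downstream POU2F1 promoter, against 67.7% of the upstream one and 66.7% of that of POU2F2. The word TGGGAA, which holds the core GGGAA that IKAROS and AIOLOS recognise, was absent on both strands from all 3 printed sequences. It was present in 24.0% of RefSeq promoters. The shorter core itself was not counted, and it can be read in the POU2F2 sequence (as its reverse complement TTCCC) and in the upstream POU2F1 sequence. An absent word says only that these letters are not in this stretch.

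Depth, recovered from the deposited columns, ran from 10.9 M tags for HDAC2 to 23.4 M for IKAROS. The depth of the input, recovered from the same columns, was 19.8 M tags for the HDAC2 list and 21.2 to 21.3 M for the other 6 lists. Input tags of HDAC2 peaks are thus not on quite the same scale as those of the others. Peak height is given in tags per 10 M tags of the library, and the rank of a peak as the share of its own list at least as high. The HDAC2 list admits p-values over input up to 9.5e-05, and the other 6 lists none above 8.92e-10.

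POU2AF1 had 16 peaks in 7 regions, POU2F2 had 28 in 9 regions, and POU2F1 had 28 in 13 regions over the longest window. This came to 32 peaks per 100 kb at POU2AF1, 43.1 at POU2F2 and 12.7 at POU2F1. Each list had more peaks in each window than its mean over adjoining tiles of that width, tiles without a peak included. For IKAROS there were 4 peaks against a mean of 0.892 at POU2AF1, 6 against 1.16 at POU2F2 and 7 against 3.91 at POU2F1. Counting only peaks with their centre in the window left 13 of the 16 at POU2AF1 and all 28 at each of POU2F2 and POU2F1. By list, IKAROS had 17 of the 72 peaks, AIOLOS 13, HDAC2 12, MTA2 11, OCAB 9, Mi2 6 and OCT2 4. Regions are numbered here from the low to the high coordinate within each window. Of the 29 regions, 14 held a peak of 1 list alone (48.3%, against 44.7% of all merged regions), and widths ran from 251 to 626 bp.

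**Figure D1:**
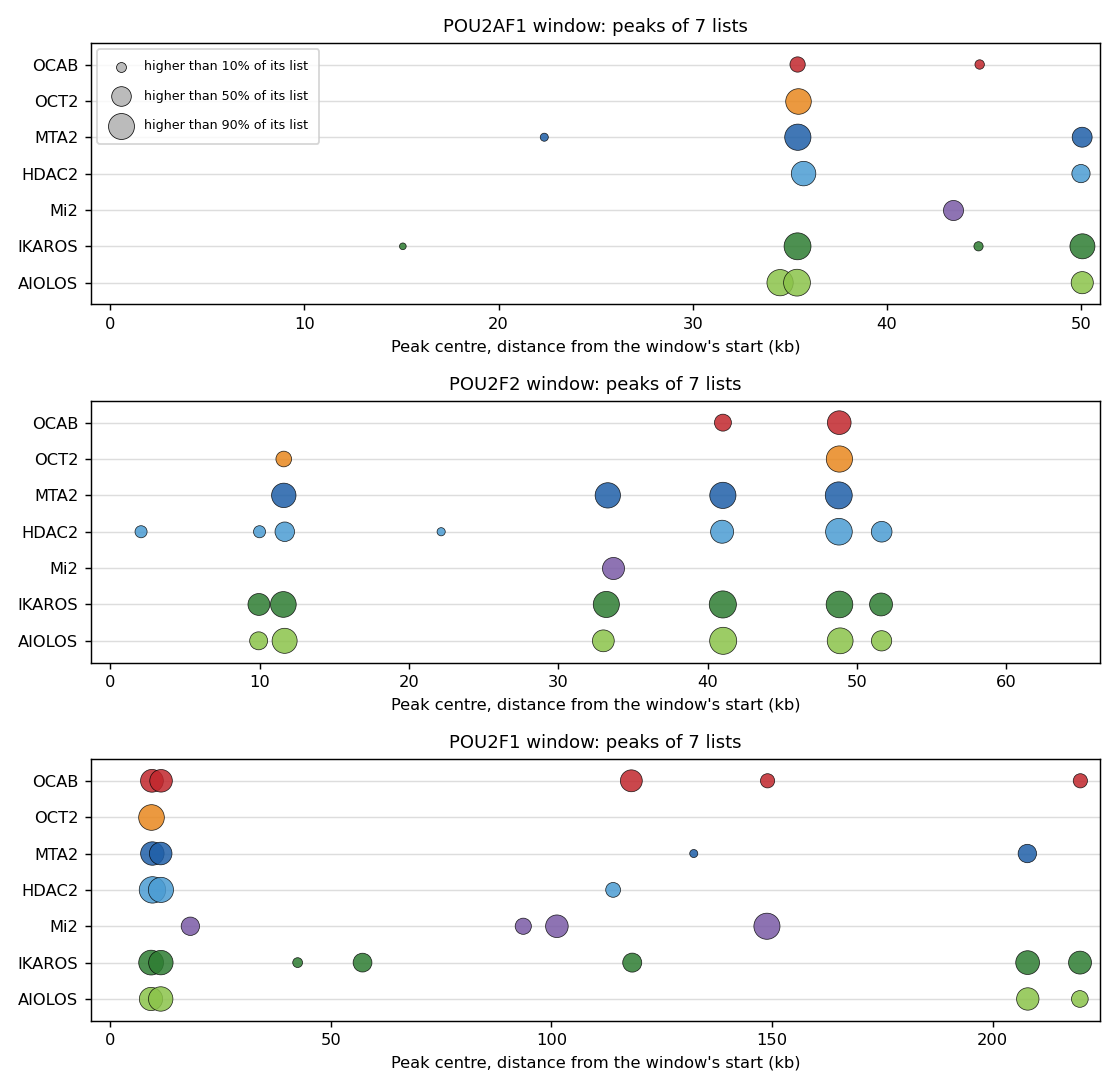
Peaks of the 7 lists along the 3 windows. The x axis is the distance of a peak's centre from the start of the window in kb, rows are the lists, and a larger point is a peak that is higher within its own list. Each window has 1 column of 6 proteins that contains OCAB and OCT2, and Mi2 stands outside those columns.

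OCAB, the product of POU2AF1, had peaks at all 3 genes, as did every other list. There were 2 OCAB peaks at POU2AF1, 2 at POU2F2 and 5 at POU2F1. A peak of OCAB was present in 9 of the 29 regions of the windows (31.0%, 95% Wilson interval 17.3 to 49.2), against 5.99% of all merged regions. Adjoining tiles of the same width over chromosomes 1 to 22 and X held at least as many OCAB peaks in 0.74% of cases for the POU2AF1 window, 1.1% for POU2F2 and 0.225% for POU2F1. Tiles include stretches without genes or peaks, and among tiles with peaks of at least 3 lists these shares were 2.59%, 3.26% and 0.383%. For MTA2, HDAC2, Mi2, IKAROS and AIOLOS the shares over all tiles were 4.98% to 13.7% at POU2AF1 and 4.39% to 29.3% at POU2F1. At POU2F2 they ran from 0.0236% for HDAC2 and 1.71% for AIOLOS to 16.9% for Mi2. The OCAB peaks were of ordinary height: they ran from 9.69 to 24.5, with a median of 13.7 against 16 in the whole list, and 4 of 9 exceeded the list's median.

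OCT2, the product of POU2F2, had 4 peaks, 1 at POU2AF1, 2 at POU2F2 and 1 at POU2F1. The share of regions with OCT2 was 13.8% (5.50 to 30.6), against 11% of all merged regions, so the interval includes the background. Tiles of the same width held at least as many OCT2 peaks in 11% of cases for POU2AF1, 3% for POU2F2 and 33.5% for POU2F1. Among tiles with peaks of at least 3 lists these shares were 36.9%, 8.95% and 56.0%. In contrast to OCAB, 3 of the 4 OCT2 peaks stood high in their list by height. The 4 heights were 28.4 at POU2AF1, 34.4 and 11.5 at POU2F2 and 28.9 at POU2F1, with ranks in the top 12.4%, 7.79%, 69.4% and 11.8%, and the median of the whole list was 14.2. By fold over input the ranks of these peaks, in the same order, were the top 10.0%, 39.3%, 86.0% and 48.1%. The OCAB peaks had a median fold of 13.0, against 12.4 in their list, so the contrast is one of height.

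Of the 9 OCAB regions, 3 also held OCT2 (33.3%, 12.1 to 64.6, against 42.2% of all OCAB regions), and 8 held IKAROS (88.9%, 56.5 to 98.0, against 63.0%). Of the 4 OCT2 regions, 3 held OCAB (75%, 30.1 to 95.4, against 23.1% of all OCT2 regions). With so few regions these intervals are wide, and regions are not replicates.

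**Figure D2:**
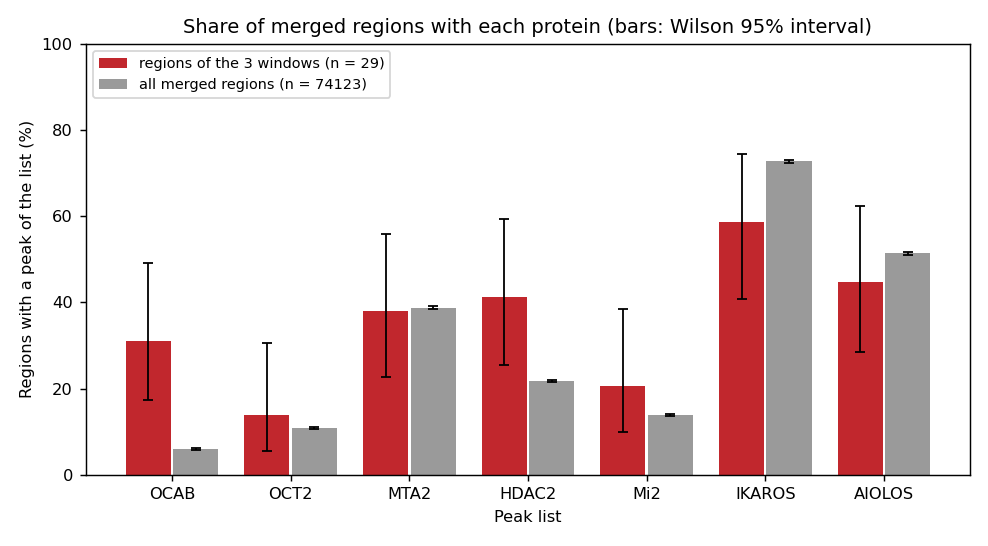
Share of merged regions with a peak of each list, in percent: red for the 29 regions of the 3 windows, grey for all 74123 merged regions, with Wilson 95% intervals. The intervals of the windows lie above the grey bars for OCAB (31.0% against 5.99%) and HDAC2 (41.4% against 21.8%, but 12% against 9.47% at a p-value over input of at most 1e-10) and include the grey bars for the other 5 lists.

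Each gene had exactly 1 region with OCAB and OCT2 together, and each of those 3 regions also held MTA2, HDAC2, IKAROS and AIOLOS but no Mi2. Regions with OCAB and OCT2 made up 10.3% of the windows' regions (3.58 to 26.4), against 2.53% of all merged regions. The pattern of 6 proteins without Mi2 had the same 3 regions, against 0.869% of all merged regions, or 644 in number. The 1 region per gene depends on the settings: at 8-fold over input, or with centres within 100 bp, 1 such region was left, at POU2F2, and among the 2000 highest peaks of each list 0 were left. Among the 1874 regions of the series with OCAB and OCT2, 34.4% showed this pattern and 31.2% held Mi2.

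At POU2AF1 this was region 4, chr11:111250244-111250869. The ChIP tags stood over input by 13.3-fold for OCAB, from 22 ChIP tags and 2 input tags, and by 30.1-fold for OCT2, from 52 and 2. With so few input tags, the exact 95% intervals of these ratios were 3.28 to 117 for OCAB and 7.90 to 254 for OCT2. OCAB had a height of 12.5 (exact Poisson 95% interval 7.86 to 19.0), lower than most of its list, with 70.9% of OCAB peaks at least as high. Its height for OCT2 was 28.4 (21.2 to 37.2), for MTA2 41.2 (33.6 to 50.8) and for HDAC2 21.1 (13.4 to 31.6). For IKAROS it was 147.1 (132 to 164), and 2.58% of IKAROS peaks were at least as high. The AIOLOS height of 122.6 (106 to 141) likewise lay in the top 3.44% of that list. HDAC2 was the weakest member over input here, at 4.21-fold, with 10 input tags under the peak, a number that 2.49% of HDAC2 peaks reached. The HDAC2 peak was joined to this region only by an overlap at the end of the OCT2 peak.

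At POU2F2 it was region 8, chr19:42633632-42634001, where MTA2, HDAC2, OCAB and OCT2 each had their highest peak of the 3 windows. The OCAB height was 24.5 (17.7 to 33.0) and the OCT2 height 34.4 (26.4 to 44.0), so OCT2 was at its own gene in the top 7.79% of its list. MTA2 reached 64.4 (54.7 to 76.1), in the top 2.22%, and HDAC2 32.1 (22.3 to 44.6), in the top 4.46%. IKAROS had 111.2 (98.2 to 126) and AIOLOS 69.7 (57.4 to 83.9). All 6 proteins exceeded input by at least 9.16-fold, the value for HDAC2. Region 8 had 1.13 times the OCAB tags of POU2F1 region 1 (0.714 to 1.80) and 1.19 times the OCT2 tags (0.812 to 1.75). The HDAC2 ratio was 1.09 (0.658 to 1.82). These intervals include no difference, whereas that of MTA2 does not (2.79, 2.03 to 3.90).

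At POU2F1 it was region 1, chr1:167189112-167189732. Its MTA2 and HDAC2 peaks overlapped none of the OCT2, IKAROS and AIOLOS peaks and were joined to them only through the OCAB peak. OCAB had a height of 21.7 (15.3 to 29.7), OCT2 28.9 (21.7 to 37.8), MTA2 23.2 (17.4 to 30.3) and HDAC2 29.3 (20.1 to 41.4). IKAROS had 49.6 (41.0 to 59.6) and AIOLOS 37.3 (28.5 to 48.1), both lower than in the matching regions of POU2AF1 and POU2F2. In the IKAROS library, POU2AF1 region 4 had 2.97 times the tags of this region (exact interval 2.40 to 3.69), and in the AIOLOS library 3.28 times (2.45 to 4.46). MTA2 followed that order, with a ratio of 1.79 (1.27 to 2.56). OCT2 did not, with a ratio of 0.981 (0.656 to 1.47) between the same regions. OCAB (0.579, 0.326 to 1.004) and HDAC2 (0.719, 0.402 to 1.27) leaned the other way, with intervals that include no difference. Input tags were numerous here, 10 under the MTA2 and HDAC2 peaks, which 2.60% of MTA2 peaks and 2.49% of HDAC2 peaks reached. Fold over input was 4.93 for MTA2, 5.86 for HDAC2 and 6.57 for OCAB, below the medians of their lists (11.6, 7.33 and 12.4). It was 10.2 for OCT2 and 17.6 for IKAROS, above their medians (9.85 and 15.2), and 13.2 for AIOLOS, below its median of 16.5. The part of the input in these heights was not tested.

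**Figure D3:**
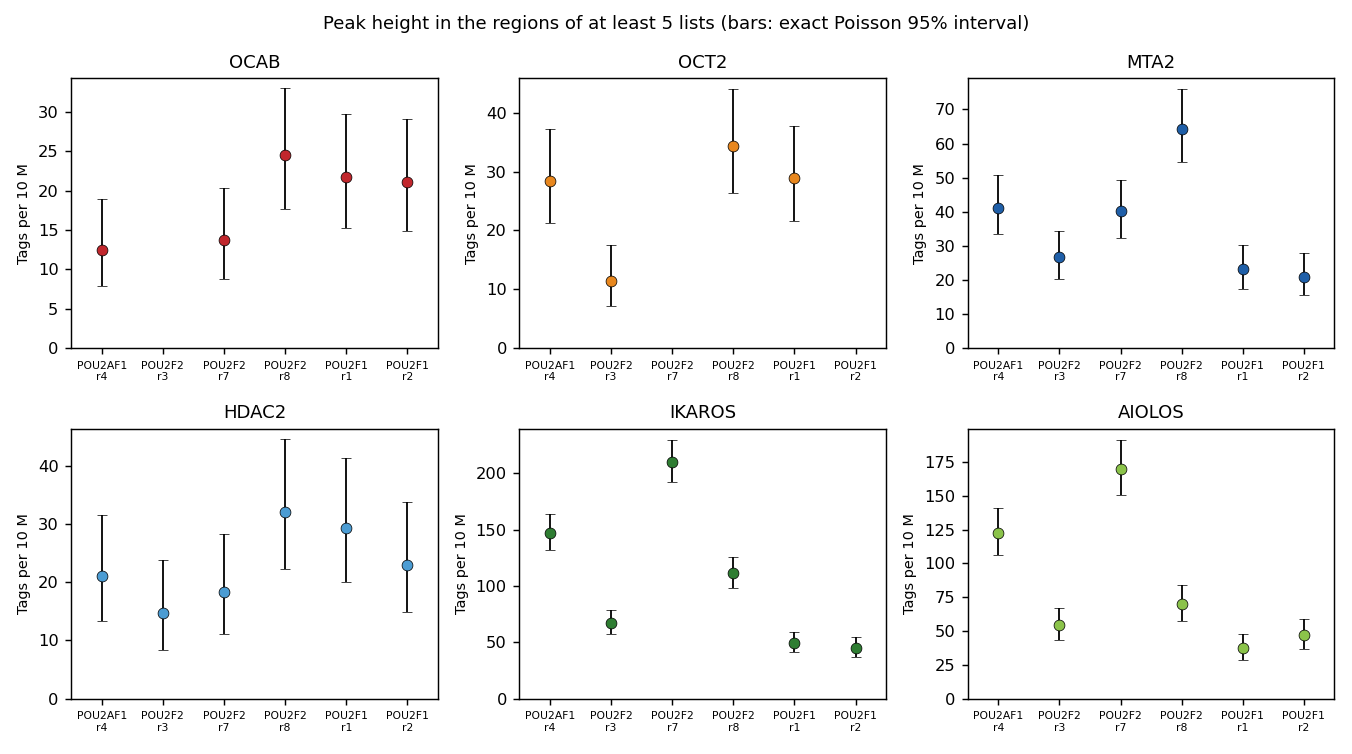
Peak height in tags per 10 M (y axis, linear and from 0) in the 6 regions that hold at least 5 lists (x axis, gene and region number), 1 panel a protein, with exact Poisson 95% intervals. MTA2, HDAC2, OCT2 and OCAB are highest at POU2F2 region 8, while IKAROS and AIOLOS are highest at POU2F2 region 7, with 210.4 and 169.9. For HDAC2, OCT2 and OCAB the intervals of POU2F2 region 8 overlap those of POU2F1 region 1.

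The highest IKAROS and AIOLOS peaks of the 3 genes lay elsewhere in POU2F2, in region 7, chr19:42625809-42626168. IKAROS had a height of 210.4 (192 to 230), which placed it 593 in rank among 53948 peaks, and AIOLOS 169.9 (150 to 191). MTA2 (40.3), HDAC2 (18.3) and OCAB (13.7) were present without OCT2. Region 7 had 1.89 times the IKAROS tags of region 8 (1.62 to 2.21) and 2.44 times the AIOLOS tags (1.95 to 3.06). OCAB and MTA2 ran the other way: region 8 had 1.61 times the MTA2 tags of region 7 (1.23 to 2.11) and 1.79 times the OCAB tags (1.06 to 3.09), while the HDAC2 ratio of 1.75 had an interval of 0.983 to 3.20 that includes no difference. The 2 regions lay 7463 bp apart.

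The remaining regions with OCT2 or OCAB held fewer proteins. POU2F2 region 3, chr19:42596456-42596846, had OCT2 at a height of 11.5 with MTA2 at 26.7, HDAC2 at 14.7, IKAROS at 67.6 and AIOLOS at 54.2, and no OCAB. Its OCT2 tags were fewer than those of region 8, which had 3 times as many (1.81 to 5.18). POU2F1 region 2, chr1:167191312-167191653, followed region 1 after 1579 bp and had OCAB at 21.1, MTA2 at 21, HDAC2 at 22.9, IKAROS at 45.3 and AIOLOS at 46.7, again without OCT2. Tags in regions 1 and 2 of POU2F1 did not differ beyond counting error for OCAB (1.03 times in region 1, 0.636 to 1.66) or MTA2 (1.10 times, 0.733 to 1.67).

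OCAB and IKAROS were the only proteins listed in POU2AF1 region 6, chr11:111259584-111259912, with heights of 9.69 and 8.55, and in POU2F1 region 9, chr1:167297960-167298432, with 19.4 and 19.2. This pair of proteins without the other 5 was found in 175 regions of the whole series. In POU2F1 region 9 the IKAROS peak stood 4.09-fold over input with 10 input tags, while the OCAB peak stood 13.7-fold with 3. OCAB with Mi2 alone, at POU2F1 region 11, chr1:167328647-167329094, was found in 36 regions of the series. Heights there were 12 for OCAB and 26.5 for Mi2, and 8.49% of Mi2 peaks were at least as high. In POU2F1 region 13, chr1:167399601-167399980, at the far edge of the window on the side of the neighbouring gene CD247, OCAB had 12, IKAROS 32.9 and AIOLOS 18.7. Of the 5 OCAB peaks at POU2F1, 4 were thus without OCT2 in these lists. In the whole series, too, OCT2 was present in only 42.2% of OCAB regions.

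Across the 15 regions of at least 2 lists, the peak centres of a region spanned 42 to 338 bp, with a median of 95 bp. In POU2AF1 region 4 the OCAB, OCT2, MTA2 and AIOLOS centres lay within 27 bp of the IKAROS centre, and the HDAC2 centre lay 311 bp from it. In POU2F2 region 8 the 6 centres spanned 94 bp. In POU2F1 region 1 they fell into separate places: the OCT2 centre was 7 bp and the AIOLOS centre 28 bp from that of IKAROS, whereas OCAB lay 188 bp, MTA2 281 bp and HDAC2 305 bp to one side. The distance between OCAB and OCT2 was 181 bp there, against 13 bp at POU2AF1 and 10 bp at POU2F2, and the median over the 1874 shared regions of the series was 43 bp with a 90th percentile of 136 bp. For OCT2 with MTA2 it was 274 bp at POU2F1, against a median of 47 bp and a 90th percentile of 164 bp. The focus ratio, the share of tags placed as a single peak around the centre would put them, was 0.576 for OCT2, 0.547 for MTA2, 0.565 for AIOLOS and 0.635 for IKAROS in this region. A ratio at least as high was found for 97.2% of OCT2, 98.6% of MTA2, 98.7% of AIOLOS and 94.0% of IKAROS peaks. The focus ratio was 0.723 for HDAC2 and 0.729 for OCAB, and 41.0% of HDAC2 peaks and 70.3% of OCAB peaks had a ratio at least as high. MTA2 in POU2AF1 region 4 had a similar ratio of 0.577.

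**Figure D4:**
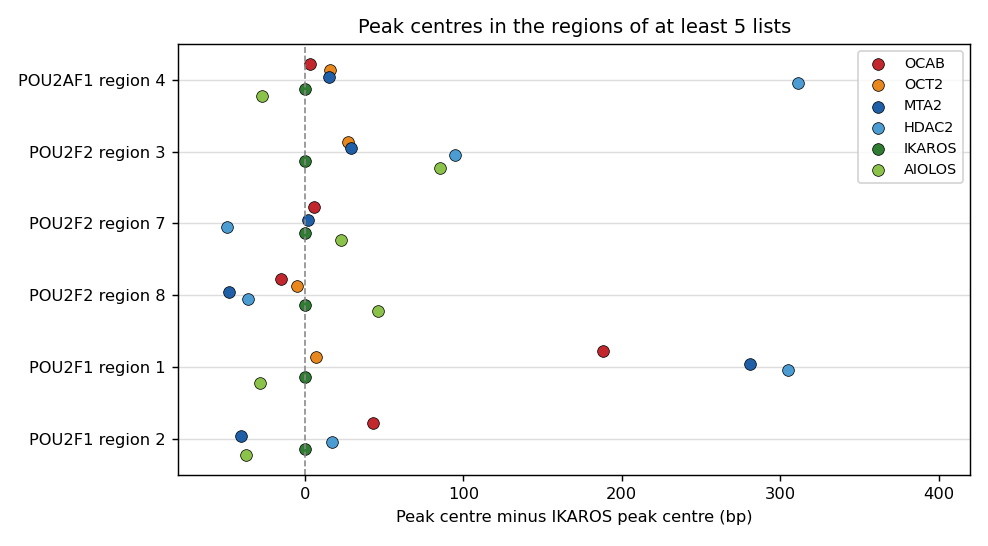
Distance of each peak centre from the IKAROS centre in bp (x axis) in the 6 regions that hold at least 5 lists (rows), with 1 colour a protein. Centres lie within 95 bp of IKAROS apart from HDAC2 in POU2AF1 region 4 (311 bp) and OCAB, MTA2 and HDAC2 in POU2F1 region 1 (188, 281 and 305 bp).

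MTA2 was present in 11 of the 29 regions (37.9%, 22.7 to 56.0, against 38.8% of all merged regions), a share near the background. Its 11 heights ran from 7.44 to 64.4 with a median of 23.2, against 16.2 for the whole list, and the lowest were the solitary peaks of POU2AF1 region 2 and POU2F1 region 10. HDAC2 was present in 12 regions (41.4%, 25.5 to 59.3, against 21.8%). Of its peaks, 7 lay at POU2F2, a number that 0.0236% of tiles of that width reached or exceeded. That share is over all tiles, of which 22.8% held any HDAC2 peak. It was not computed among tiles with peaks of at least 3 lists, so it cannot be set beside those shares of OCAB and OCT2. At a p-value over input of at most 1e-10, 1 of the 7 was kept at POU2F2, none of 2 at POU2AF1 and 2 of 3 at POU2F1, and the share of regions with HDAC2 fell to 12%, against 9.47% of all merged regions. At 8-fold over input it was 9.09%, against 11.6%.

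Most of the 6 Mi2 peaks overlapped no peak of another list. The 6 peaks lay in 6 regions (20.7%, 9.85 to 38.4, against 13.9% of all merged regions), and 5 of these held no other list, whereas 42.7% of Mi2 regions of the series stood alone. The 1 Mi2 region with another list made up 16.7% (3.01 to 56.4), against 57.3% in the series, so the interval only just excludes the background. At POU2AF1 the Mi2 peak was region 5, chr11:111258234-111258580, with a height of 15.1 (10.1 to 21.9). POU2F2 region 6 with Mi2 at a height of 16.7 began 22 bp after the end of region 5, chr19:42617889-42618440, which held MTA2 at 31.5, IKAROS at 78.7 and AIOLOS at 30.5. Input was high in region 5, with 14 input tags under the IKAROS peak, a number that 0.271% of IKAROS peaks reached, and 13 under the MTA2 peak. The Mi2 peak of POU2F1 region 3 had 26 ChIP tags and no input tag, and the exact lower 95% limit of its ratio to input was 7.53-fold.

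IKAROS was present in 17 of the 29 regions (58.6%, 40.7 to 74.5, against 72.8% of all merged regions) and AIOLOS in 13 (44.8%, 28.4 to 62.5, against 51.4%). Of the 13 AIOLOS regions 12 held IKAROS (92.3%, 66.7 to 98.6, against 86.5% of all AIOLOS regions), a share near the background. The exception was POU2AF1 region 3, chr11:111249372-111249628, which ended 615 bp before region 4 and had an AIOLOS height of 84, in the top 7.39% of the list. By fold over input this peak was in the top 31.5%, with 7 input tags. Its focus ratio was 0.578, and 98.1% of AIOLOS peaks had a ratio at least as high. IKAROS heights ran from 6.84 to 210.4 with a median of 38.9, against 20.5 in the whole list. AIOLOS heights ran from 18.7 to 169.9 with a median of 37.3, against 23.7. POU2AF1 region 7, chr11:111264838-111265208, lay across the edge of the window with MTA2 (16.6), HDAC2 (13.7), IKAROS (52.6) and AIOLOS (31.7). Regions 2 and 9 of POU2F2 both held HDAC2, IKAROS and AIOLOS, with IKAROS heights of 27.8 and 32.9, and POU2F1 region 12 held MTA2, IKAROS and AIOLOS with an IKAROS height of 38.9.

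Of the 72 peaks, 48 were higher than the median of their own list (66.7%, 55.2 to 76.5), where a whole list has at most 50%. By fold over input, 35 exceeded it (48.6%, 37.4 to 59.9), so the excess in height was not seen in the ratio to input. Input tags under the peak exceeded the list's median for 45 of the 72 (62.5%, 51.0 to 72.8). Among the 58 peaks in regions shared by at least 2 lists, 44 were in the upper part of their list by height (75.9%, 63.5 to 85.0), against 56.4% of all shared peaks of the series. These 58 peaks lay in only 15 regions, and peaks of the same region are not independent. The intervals of the shares given here treat all peaks as independent and are likely too narrow. They therefore do not decide whether the shares differ from 50% or from the whole series. Of the 14 peaks that stood alone, 4 were in the upper part (28.6%, 11.7 to 54.6), against 16.9% of all such peaks of the series.

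**Figure D5:**
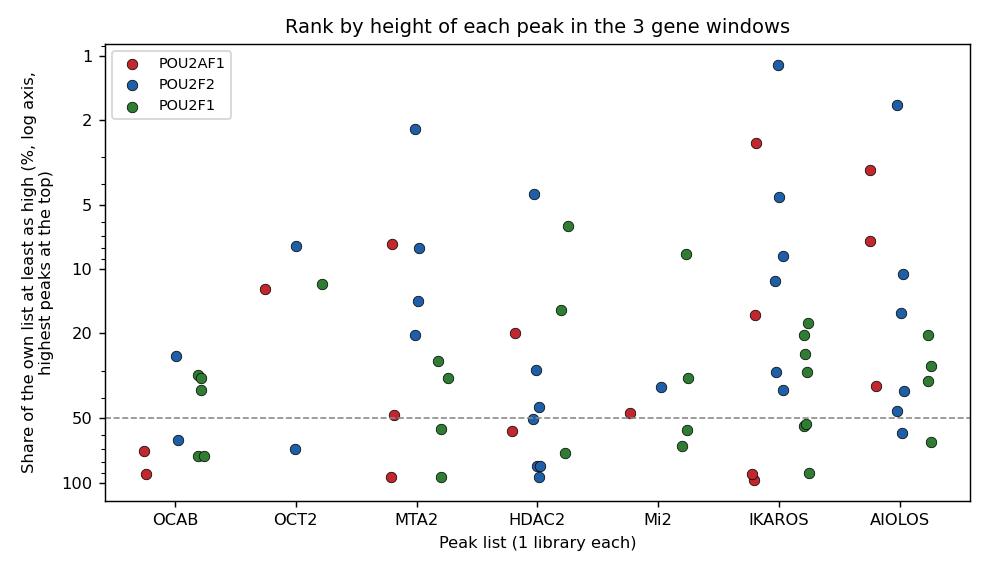
Rank of each of the 72 peaks, as the share of its own list at least as high (y axis in percent, log axis, with the highest peaks at the top), by list and coloured by gene. The dashed line marks 50%. The peaks nearest the top are those of IKAROS (1.10%) and AIOLOS (1.70%) at POU2F2, and the OCAB peaks lie between 25.4% and 91.2%.

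The nearest peak above the POU2AF1 window was 4.05 kb away, an OCAB peak of height 30.2 with IKAROS, higher than any OCAB peak inside the 3 windows. Below the POU2F2 window the nearest was an HDAC2 peak of height 12.8 at 4004 bp, with IKAROS and AIOLOS, and the nearest OCT2 peak was at 5.28 kb with a height of 10.9. Above the POU2F1 window an IKAROS peak of height 14.5 lay at 7.46 kb. On the other sides the nearest peaks were farther off, at 40.4 kb below POU2AF1, 38.5 kb above POU2F2 and 73.2 kb below POU2F1. In the gene order of RefSeq, POU2AF1 lies between POU2AF3 and BTG4, POU2F2 between ZNF574 and DEDD2, and POU2F1 between STYXL2 and CD247. Peaks could not be placed in exons, introns or UTRs, since no annotation of hg19 was used here. For the same reason other genes of the octamer pathway were not counted.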

How the data were processed

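ChIP-seq libraries of 697 cells were analysed from 7 deposited peak lists, 1 per antibody. Per the labels' protocols, DNA from sonicated nuclei was amplified by PCR and sequenced on an Illumina HiSeq 2500, and no molecular identifiers are mentioned. CASAVA (version 1.8.2, or 1.4 for the HDAC2 library), Bowtie2 (2.3.2.2) and HOMER (4.9.1) are named in the submitters' processing notes, with build hg19. The HDAC2 list required 4-fold and a Poisson p-value of 0.0001 over input and over the surrounding 10000 bp, per the file headers. The calling settings of the remaining 6 lists were not given in the sources used here.

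Height is the signal column the authors deposited, in tags per 10 M. Counts of tags were deposited as whole numbers for 5 lists and scaled to input depth for IKAROS and MTA2, where whole tags were recovered from the step between values. Input signal was deposited by the authors and converted to tags in the same way; the smallest deposited input value is below that of 1 tag and was read as 0 tags. Fold ratios over input, p-values, the focus ratio (a fraction) and the HOMER score are also the authors' deposited columns, of which the score was not used.

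Peaks overlapping by at least 1 bp were merged. Shares have Wilson intervals and tag counts exact Poisson intervals at 95%. Ratios of tags have exact conditional binomial intervals. Intervals of tag counts and of their ratios cover counting error only, and PCR copies are not independent molecules. Wilson intervals treat regions or peaks as independent draws, which those of 1 window are not. Depth per list is given with the results. Background tiles adjoin each other from the start of each chromosome. Merging, tiling and tag recovery were tested on simulated data. Regions described in full were those with OCAB or OCT2 and those with the highest peak of a list in each window. The windows, and the lists and rules used, were chosen with earlier results of these data known. Python 3.11.15, numpy 2.4.6, pandas 2.3.3, scipy 1.17.1 and matplotlib 3.10.9 were used.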

Additional observations from a re-analysis of the deposited data

How the results depend on the processing

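Of 72 values recomputed under other settings, 41 stayed close to the main value (counts within 1.5 times, shares within their interval, distances within their range or quartiles) and 31 moved. The 2000 highest peaks of each list left 3 peaks at POU2AF1, 6 at POU2F2 and 6 at POU2F1, in 7 regions. Of these regions, 57.1% held OCAB and 42.9% OCT2, against 26.6% for each of all regions at that setting. With 7 regions these shares are imprecise, and no interval is given for them. This setting left 4 OCAB peaks and 0 regions of the 6 proteins, with 46.7% of peaks above their list's median height. The median gap between regions was 18941.5 bp. At 8-fold over input, POU2F1 had 15 peaks, HDAC2 was in 9.09% of regions (against 11.6% of all regions, so its excess was gone) and 1 region of the 6 proteins was left. That region was at POU2F2, as was the 1 left where peak centres had to lie within 100 bp. A p-value limit of 1e-10 left such regions at POU2F2 and POU2F1, 2 in number, and put HDAC2 in 12% of regions, against 9.47% of all regions. Among the 15 regions of at least 2 lists, OCAB was in 60% (against 7.87% of all such regions), HDAC2 in 60% (against 33.3%) and Mi2 in 6.67% (against 14.4%). Ranking by fold over input put 48.6% of peaks above the median.

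Among tiles with a peak of at least 1 list, as many OCAB peaks were found in 1.59% for POU2AF1 and 2.12% for POU2F2, and as many OCT2 peaks in 23.7% for POU2AF1, 5.77% for POU2F2 and 45.4% for POU2F1. Among tiles with at least 3 lists the OCAB shares were 2.59%, 3.26% and 0.383%, and the OCT2 shares 36.9%, 8.95% and 56.0%, in the order POU2AF1, POU2F2 and POU2F1. The background thus depends on which tiles count, by construction. Where a peak has few input tags, its fold over input is imprecise. No paired analysis was possible because each antibody had 1 library.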
